A study of Mus musculus with 6 samples.

Results

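The 69 miRNAs described here carry provisional names in the authors' tables, which mark them as predictions rather than entries of a miRNA catalogue, and they are 69 of the 474 miRNAs listed for every library. The rule that picks them is that prefix alone and uses no measured value, and the other 405 carry catalogue names and serve as the comparison. Each provisional name ends in a running number and an arm, so that 142-3p below is the authors' prediction number 142 from the 3p arm, with the table identifier S10090_2487. The running number is not a catalogue number, so the name 142-3p does not stand for miR-142a-3p. Whether their sequences are alike could not be checked here. Every statement on arms rests on that suffix. A mature miRNA is cut from a hairpin precursor, whose 5p and 3p arms each give one possible product, and it guides Argonaute to messages through the short seed near its 5′ end. Prediction programs look for stacks of small RNA reads on genomic stretches that could fold into such a hairpin. A predicted entry can therefore be a true miRNA or a fragment of another RNA, and read counts do not separate these cases.

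The libraries came from extracellular vesicles (EVs), the membrane particles that cells shed, which were isolated from primary hepatocytes of mice. All animals, controls included, lacked ApoE (ApoE-/-), a lipoprotein ligand whose loss raises plasma cholesterol, while strain, age, sex and the number of mice behind a library remain not given in the sources used here. Chow-EV were 3 libraries from chow-fed mice and HFHC-EV 3 libraries from mice on the diet labelled HFHC, each numbered as biological replicates 1 to 3. Values were RPM, a per-million scaling of reads to a total much wider than the listed miRNAs, and 1 read was worth about 0.05 RPM.

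The listed miRNAs took 27673 to 65775 reads per library. Of the 6 hepatocyte markers chosen, 5 were in the table. miR-122-5p, the leading hepatocyte miRNA, stood at 10.5 and 14.0 RPM in the libraries numbered 1 but between 0.745 and 1.09 RPM in the other 4. miR-192-5p, another liver-enriched miRNA, stood at 5.79, 4.32 and 4.14 RPM in Chow-EV and at 12.4, 12.35 and 13.0 RPM in HFHC-EV, without overlap (log2 fold change 1.25, limma adjusted p = 0.0038). Set to a common level of listed miRNAs (TMM scaling, below), it had a log2 fold change of 0.60 (limma adjusted p = 0.213). The other hepatocyte markers in the table overlapped between the diets. miR-194-5p averaged 0.354 RPM in Chow-EV and 0.365 RPM in HFHC-EV. In the same order, miR-193a-3p had 4 and 2 reads and miR-148a-3p 5 and 8. The 5 hepatocyte markers summed to 5.54 to 17.0 RPM in Chow-EV and 13.5 to 27.3 in HFHC-EV. The 3 erythroid markers ranged from 2.69 to 107 RPM and from 11.2 to 142 RPM, highest in the libraries numbered 1, while 5 of 6 immune markers summed to 7.06 to 22.5 and 7.35 to 24.9 RPM. Both endothelial markers summed to 0.497 to 5.94 and 2.19 to 9.49 RPM, and 3 of 4 mesenchymal markers to 0.103 to 1.74 and 1.77 to 3.76 RPM. None of the marker miRNAs in the table was at 0 in all 6 libraries, and their part in the results on the predicted miRNAs was not tested.

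For scale, the miRNAs with the highest signal in these libraries were all members of the let-7 family, a conserved group that acts in differentiation. Their mature forms, from RefSeq on GRCm38.p6, are shown 5′ to 3′ with the seed (bases 2 to 8) in capitals, as the kind of record that 348 of the 405 annotated names matched and 0 of the 69 predicted names did.
let-7c-5p: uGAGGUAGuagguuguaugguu
let-7a-5p: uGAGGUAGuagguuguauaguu
let-7f-5p: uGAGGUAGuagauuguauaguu
All 3 share the seed GAGGUAG. let-7c-5p can come from chr15:85706616-85706637 or chr16:77599672-77599693, both on the plus strand. One locus of let-7a-5p in that table is chr13:48538239-48538260 on the minus strand, and let-7f-5p has chr13:48537889-48537910 on the minus strand and chrX:151912353-151912374 on the plus strand. let-7c-5p stood at 192 ± 23.2 RPM in Chow-EV and 319 ± 29.9 RPM in HFHC-EV (mean ± SD, n = 3 each). The predicted miRNAs are identified below by number, arm and read count, since no sequence or position of theirs was used here. The match above was by name, which a provisional name could not give, so 0 of 69 says nothing on their sequences.

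The predicted miRNAs were a small part of the vesicle signal. Together they held 7455 recovered reads, 2.96% of the reads of all listed miRNAs. Of the 69, 57 had at least 1 read in some library and 12 had none, against 365 of the 405 annotated miRNAs with reads and 40 without. Without a read were 120-3p, 120-5p, 328-5p, 122-3p, 45-3p, 339-5p, 171-3p, 241-5p, 368-3p, 200-3p, 15-5p and 130-3p. A mean of at least 1 RPM was reached by 9 predicted miRNAs (13.0%) and 95 annotated ones (23.5%). Among those with reads the typical level was alike: the median mean level was 0.196 RPM (23 reads over the 6 libraries) for predicted and 0.182 RPM (21 reads) for annotated miRNAs. The upper ends differed, at 30.3 RPM for 142-3p, which ranked 20 of 474, and 256 RPM for let-7c-5p. Reads in all 6 libraries were found for 19 predicted miRNAs, while 10 rested on a single read.

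Their signal was concentrated in few members. 142-3p alone held 47.3% of the predicted reads, the 3 most abundant (142-3p, 402-5p and 450-5p) 63.8%, and the 9 with a mean of at least 1 RPM 84.2%. By arm, 38 predicted miRNAs were from the 5p and 31 from the 3p arm. Reads were found for 33 and 24 of them, and a mean of at least 1 RPM for 5 and 4. The 3p members held 4895 reads and the 5p members 2560, which is the reverse of the annotated miRNAs, where 5p products held 191670 reads and 3p products 46827. The excess of 3p reads was that of 142-3p, which had 3526. Both arms of one prediction were rarely listed: 5 of the 64 running numbers (7.81%) had both, against 90 of 292 annotated stems (30.8%). A stem is the name without its arm, so let-7c-1-3p and let-7c-5p count as separate stems, which understates the annotated share. Both arms had reads in the same diet only for number 327, in HFHC-EV. 327-5p had 19 Chow-EV and 4 HFHC-EV reads beside 1 HFHC-EV read of 327-3p, and 151-3p had 8 reads in Chow-EV, all in replicate 1, where 151-5p had none, while 151-5p had 11 in HFHC-EV where 151-3p had none. 130-5p had 2 reads and 130-3p none, the arms of 474 had 1 read each in different diets, and both arms of 120 had no read.

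The first comparison asked whether the amount of predicted miRNA signal differed between the diets. It amounted to 63.6, 59.7 and 58.6 RPM in Chow-EV replicates 1 to 3 and 69.4, 63.2 and 69.9 RPM in the HFHC-EV replicates. The ranges overlapped only slightly, between Chow-EV replicate 1 and HFHC-EV replicate 2, and the 2 diets differed by 6.83 RPM (60.6 ± 2.65 against 67.5 ± 3.75, n = 3 each, 2-sided exact permutation p = 0.2). HFHC-EV was higher in 3 of 3 pairs of libraries that share a number (2-sided exact sign-flip permutation p = 0.25, the smallest that 3 pairs allow). Leaving out 142-3p brought the difference to 0.516 RPM (exact permutation p = 0.8). Over the same libraries the annotated signal ran from 1316 to 3371 RPM, a span of 2.56-fold, whereas the predicted signal spanned 1.19-fold. It averaged 1602 ± 372 RPM in Chow-EV and 2615 ± 662 RPM in HFHC-EV, without overlap (exact permutation p = 0.1, below which no test of 3 against 3 libraries can go).

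**Figure D1:**
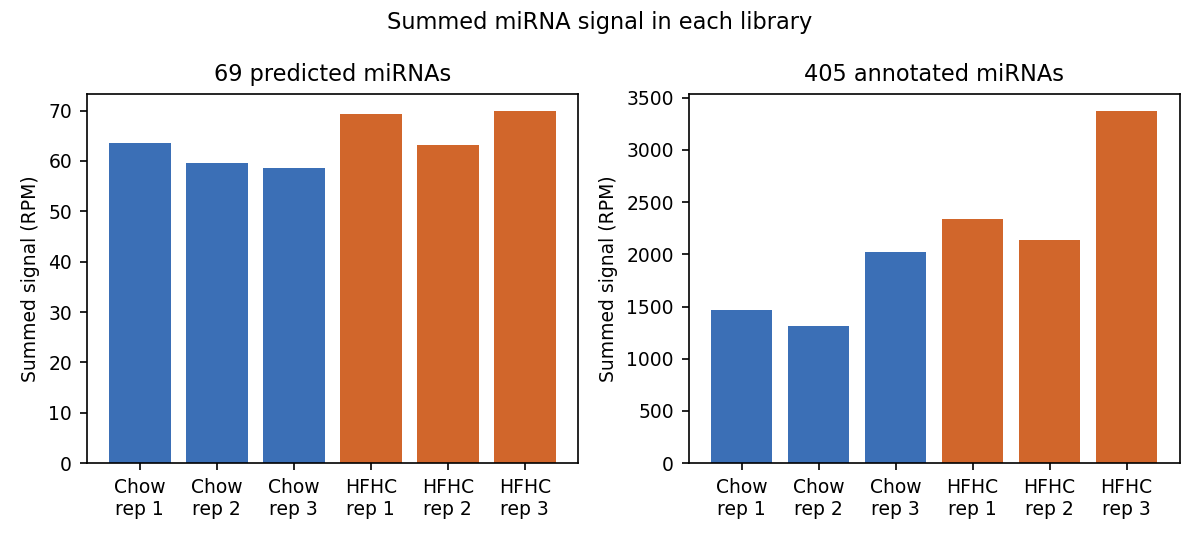
Summed signal in RPM (vertical axis, from 0) in each of the 6 libraries (blue, Chow-EV; orange, HFHC-EV), for the 69 predicted miRNAs on the left and the 405 annotated miRNAs on the right. Predicted totals lie between 58.6 and 69.9 RPM in every library, while annotated totals run from 1316 to 3371 RPM and are highest in HFHC-EV replicate 3.

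The share of the listed signal, by contrast, has the annotated miRNAs in its denominator. The predicted miRNAs made up 4.16% in Chow-EV replicate 1 (exact Clopper-Pearson 95% confidence interval 3.93 to 4.39), 4.34% in replicate 2 (4.10 to 4.59) and 2.82% in replicate 3 (2.66 to 2.98). In HFHC-EV they made up 2.88% (2.73 to 3.04), 2.87% (2.71 to 3.03) and 2.03% (1.92 to 2.14). These intervals cover counting error only, since reads without molecular identifiers are not independent molecules. The libraries numbered 3 were lowest in both diets, and Chow-EV replicate 3 lay among the HFHC-EV libraries. The Chow-EV libraries averaged 3.77 ± 0.831% and the HFHC-EV libraries 2.59 ± 0.488%, with HFHC-EV lower in 3 of 3 pairs of libraries that share a number (exact permutation p = 0.3; exact sign-flip permutation p = 0.25). Without 142-3p the groups did not overlap, at 2.11 ± 0.430% and 1.32 ± 0.221% (exact permutation p = 0.1).

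More predicted miRNAs had reads in HFHC-EV. They numbered 32, 31 and 35 in the Chow-EV libraries and 37, 36 and 42 in the HFHC-EV libraries, without overlap (difference 5.67, exact permutation p = 0.1). Thinned to 27673 listed reads per library, the expected numbers were 31.7, 31.0 and 33.0 against 34.0, 34.8 and 34.8, so the difference of 2.61 kept its direction at equal numbers of listed reads (exact permutation p = 0.1). Annotated miRNAs with reads numbered 187, 157 and 247 in Chow-EV and 198, 168 and 287 in HFHC-EV (exact permutation p = 0.6). They too were higher in HFHC-EV in 3 of 3 pairs of libraries that share a number, also when thinned (exact permutation p = 0.7). The 5p share of the predicted signal was 30.0, 32.1 and 32.3% in Chow-EV and 36.9, 35.6 and 38.4% in HFHC-EV, again without overlap (exact permutation p = 0.1). Without 142-3p it was 57.5, 57.1 and 56.1% against 73.3, 73.2 and 73.9%, a difference of 16.6 percentage points between groups whose SDs were 0.693 and 0.388 (exact permutation p = 0.1). In RPM the 5p members summed to 19.05 ± 0.107 in Chow-EV and 25.0 ± 2.23 in HFHC-EV, and the 3p members to 41.6 ± 2.59 and 42.5 ± 1.64 RPM. Single entries weighed heavily in these sums. On average 432-5p rose from 0.915 to 5.01 RPM, while 112-3p fell from 5.55 to 0.505 and 78-3p from 3.79 to 1.41 RPM. The 16 entries under 1 RPM that were called (below) did not follow the arm. Of their 3p entries 7 were higher and 2 lower, and of their 5p entries 3 were higher and 4 lower. The 5p share of the annotated signal was 78.9 ± 6.41% and 79.0 ± 4.70% (exact permutation p = 1.0). 142-3p made up 47.8, 43.9 and 42.5% of the predicted signal in Chow-EV and 49.6, 51.3 and 48.1% in HFHC-EV (exact permutation p = 0.1). Over the 5 measures of summed signal, share, number with reads, 5p share and share of 142-3p, the Benjamini-Hochberg adjusted exact permutation p lay between 0.167 and 0.30.

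The predicted miRNAs varied little between libraries of one diet. A dispersion index, the chi-square of the reads within diets over its 4 degrees of freedom, is near 1 where libraries differ by counting error alone. It had a median of 0.784 over the 9 predicted miRNAs that averaged 1 RPM or more, and 8 of the 9 were under the 95% point of 2.37. The exception was 142-3p at 3.29, with the most reads of all. Of the 95 annotated miRNAs at that level, 25 were under the limit, and their median index was 19.1. The index rises with abundance, but among the 76 annotated miRNAs whose mean did not exceed that of 142-3p the same 25 were under it and the median was 11.6. On the log2(RPM + 1) scale the median SD within diets was 0.118 for predicted and 0.410 for annotated miRNAs. No predicted miRNA, and 45 of the 95 annotated ones, differed by more than 1 on that scale between the highest and lowest library of a diet. Set against each other over all predicted miRNAs, 2 libraries of a diet gave a chi-square per degree of freedom of 0.822 to 1.74, against 14.8 to 31.5 over all listed miRNAs, so no library is a copy of another. These are descriptions of the 2 kinds of entry, and the difference in spread was not tested.

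**Figure D2:**
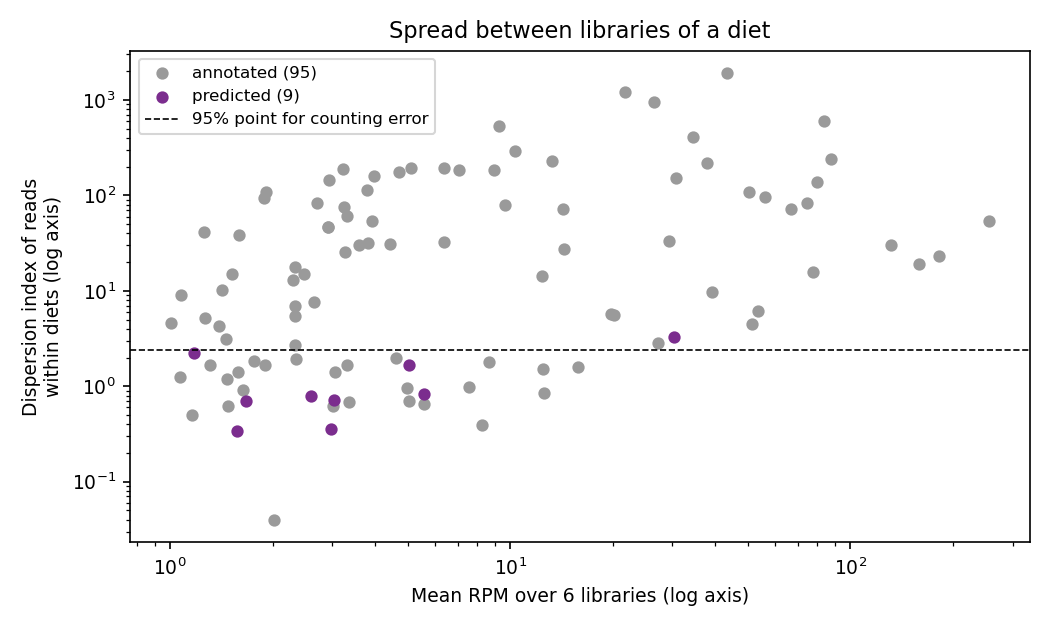
Dispersion index of the reads within diets (vertical axis, log scale) against mean RPM over the 6 libraries (horizontal axis, log scale), 1 point per miRNA that averaged 1 RPM or more, purple for predicted and grey for annotated. The dashed line is the 95% point for counting error, 2.37. 8 of 9 predicted and 25 of 95 annotated miRNAs lie under it.

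The main comparison asked which predicted miRNAs changed with diet. Among the 9 at or above 1 RPM on average, 432-5p and 248-5p were higher in HFHC-EV and 112-3p, 78-3p and 489-3p were lower, so that both that rose were 5p and all 3 that fell were 3p entries. In limma-trend on log2(RPM + 1), fitted over all 104 miRNAs at that level, 2 of 9 predicted miRNAs were called higher, where 24% of all tested miRNAs were, and 3 of 9 lower, where 4.81% were (Benjamini-Hochberg adjusted p under 0.05). The annotated miRNAs gave 23 of 95 higher and 2 of 95 lower. Of the called entries, 432-5p averaged 0.915 RPM in Chow-EV, and 112-3p and 489-3p averaged 0.505 and 0.592 RPM in HFHC-EV. These reached the level of 1 RPM only through the diet where they were higher. How many annotated calls did so was not counted. The median log2 fold change was 0.28 over the 9 predicted, 0.55 over the 95 annotated and 0.51 over all 104 miRNAs. Here and below, limma log2 fold changes are on the log2(RPM + 1) scale unless another pseudocount is named. The fold changes on this scale understate those of low miRNAs, so they do not match the folds in mean RPM given beside them.

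The fall of 112-3p was the largest among the 9. 112-3p (S10090_2578) had 5.22, 5.42 and 6.0 RPM in the Chow-EV libraries and 0.417, 0.417 and 0.680 RPM in the HFHC-EV libraries, or 327 reads against 29. Every Chow-EV value was several-fold above every HFHC-EV value. The means of 5.55 ± 0.405 and 0.505 ± 0.152 RPM differed 11-fold, a log2 fold change of −2.12 (SE 0.137, limma adjusted p = 0.0011). The other 3p entries that fell did so by less.

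78-3p (S10090_2389) stood at 4.04, 3.93 and 3.41 RPM in Chow-EV and at 1.72, 1.25 and 1.26 RPM in HFHC-EV, 2.69-fold lower (log2 fold change −1.0, SE 0.143, limma adjusted p = 0.0063), and the groups did not overlap. 489-3p (S10090_2703) stood at 1.59, 1.64 and 2.07 RPM in Chow-EV and at 0.730, 0.208 and 0.837 RPM in HFHC-EV (log2 fold change −0.82, SE 0.208, limma adjusted p = 0.0418). Its groups did not overlap either, but the HFHC-EV libraries spread 0.208 to 0.837 RPM, and the call was lost when any 1 of the 6 libraries was left out (adjusted p from 0.0520 to 0.122).

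432-5p moved the other way. This entry (S10090_2433) had 0.819, 0.994 and 0.931 RPM in Chow-EV and 5.43, 4.69 and 4.92 RPM in HFHC-EV, or 54 against 288 reads. All 3 HFHC-EV libraries were far above the Chow-EV ones, by 5.48-fold in the means of 0.915 ± 0.0886 and 5.01 ± 0.376 RPM (log2 fold change 1.65, SE 0.121, limma adjusted p = 0.0011). 248-5p (S10090_2211) rose from 1.13, 1.19 and 1.14 RPM to 1.83, 1.88 and 2.30 RPM, which is 1.74-fold (log2 fold change 0.48, SE 0.124, limma adjusted p = 0.0426). Its 6 values also separate by diet, yet the call was lost without any 1 of the 6 libraries (adjusted p from 0.0734 to 0.122) and the log2 fold change was 0.024 after TMM scaling.

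The other 4 entries of the 9 were not called. 142-3p (S10090_2487) stood at 30.4, 26.2 and 24.9 RPM in Chow-EV and 34.4, 32.4 and 33.6 RPM in HFHC-EV, a 1.23-fold difference in which the groups did not overlap (log2 fold change 0.30, SE 0.109, limma adjusted p = 0.103). 402-5p (S10090_2099), with 5.58, 5.42 and 5.95 against 6.10, 4.85 and 5.60 RPM, was the one of the 9 whose groups overlapped (log2 fold change −0.033, SE 0.129, adjusted p = 0.913). 450-5p (S10090_2386) had 4.81, 4.27 and 3.83 against 5.22, 5.32 and 6.70 RPM, with a log2 fold change of 0.34 (SE 0.152, adjusted p = 0.151). 205-5p (S10090_2611) had 1.38, 1.34 and 1.5 against 2.14, 1.51 and 2.15 RPM, with a log2 fold change of 0.28 (SE 0.145, adjusted p = 0.213). For the last 2 the HFHC-EV values were all above the Chow-EV values, by little in the case of HFHC-EV replicate 2 of 205-5p.

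**Figure D3:**
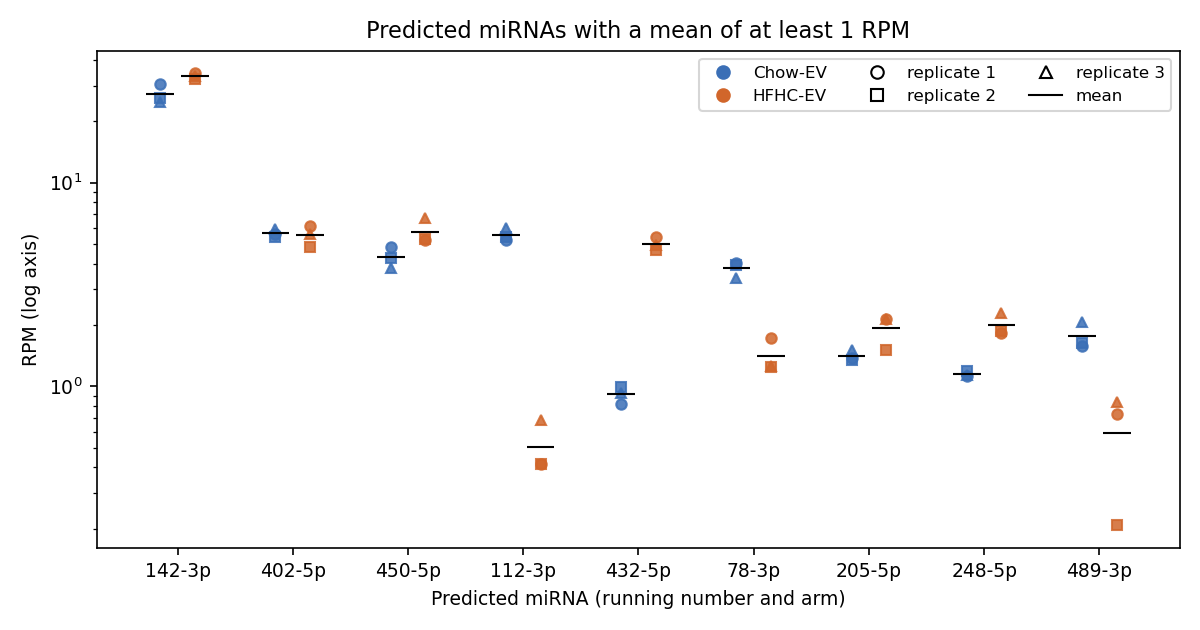
RPM (vertical axis, log scale) of the 9 predicted miRNAs that averaged 1 RPM or more, in order of mean level, with 1 point per library (blue, Chow-EV; orange, HFHC-EV; circle, square and triangle for replicates 1 to 3) and a black line at each mean. 112-3p falls from 5.55 to 0.505 RPM and 432-5p rises from 0.915 to 5.01 RPM, each with no overlap, while 402-5p stays at 5.65 and 5.52 RPM.

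The direction of the smaller differences depended on the scale. TMM scaling, which sets the libraries to a common level of listed miRNAs, brought the median log2 fold change of all tested miRNAs from 0.51 to −0.0042, and that of the 9 predicted ones from 0.28 to −0.42. There 432-5p was higher (1 of 9, where 3.85% of all tested miRNAs were called) and 112-3p, 78-3p and 489-3p were lower (3 of 9, where 6.73% were). Their log2 fold changes on that scale were 1.16, −2.56, −1.5 and −1.19 (limma adjusted p = 0.0199, 8.3e-04, 0.0198 and 0.0198). The annotated miRNAs gave 3 of 95 higher and 4 of 95 lower with TMM scaling. 142-3p, 450-5p and 205-5p turned to −0.42, −0.28 and −0.19, so for these 3 the direction depended on the scaling.

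Replicate numbers paired the libraries over all tested miRNAs, so a fit with the number as a block was set beside this. With the replicate block in RPM, 4 of 9 predicted miRNAs were called higher, where 66.3% of all tested miRNAs were, and 3 lower, where 7.69% were, the gains being 142-3p (limma adjusted p = 0.0052) and 450-5p (adjusted p = 0.0295). With the replicate block and TMM scaling, 1 was higher, where 26.9% of all were, and 5 were lower, where 25% were, and 142-3p (log2 fold change −0.42, adjusted p = 6.3e-04) was now among the lower ones, with 402-5p (−0.66, adjusted p = 7.1e-04). 432-5p, 112-3p, 78-3p and 489-3p were called in the same direction in both. Leaving out the pair of libraries numbered 1, or the pair numbered 2, left 0 predicted miRNAs called by limma, while an unadjusted p under 0.05 was reached by 2 in the higher and 3 in the lower direction each time. Over the 9 predicted miRNAs themselves, deviations from the diet means correlated at −0.188, 0.562 and 0.447 between libraries numbered 1, 2 and 3, against 0.948, 0.896 and 0.946 over the 95 annotated ones, as a description across miRNAs.

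Below a mean of 1 RPM lay 48 predicted miRNAs with 1 to 106 reads in all, which were taken from the same limma fit over all 422 miRNAs with reads, with no filter on level. There 11 of 57 predicted miRNAs were higher, where 14.2% of all 422 were, and 9 of 57 were lower, where 5.21% were. The annotated ones gave 49 and 13 of 365. Among the 57, 18 had an unadjusted p under 0.05 in the higher and 13 in the lower direction, against 70 and 20 of the 365 annotated ones. Groups did not overlap, with HFHC-EV higher, for 20 of the 57 predicted miRNAs, where 23.2% of all with reads did so, and with HFHC-EV lower for 13 of 57, where 7.82% did so. The calls were 432-5p, 112-3p, 78-3p and 489-3p, described above, and 16 entries under 1 RPM, while 248-5p was not called in this fit (adjusted p = 0.0827).

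Of these 16, 10 were higher in HFHC-EV. 214-3p (S10090_2513), the most abundant of them, had 4, 6 and 5 reads in the Chow-EV libraries and 31, 29 and 31 in the HFHC-EV libraries, a 6.23-fold difference in mean RPM (log2 fold change 1.04, SE 0.122, limma adjusted p = 0.0094). 341-3p (S10090_2916) had 1, 1 and 2 reads against 17, 22 and 17 (log2 fold change 0.88, SE 0.120, limma adjusted p = 0.0135), and 186-5p (S10090_2606) had 3, 0 and 1 reads against 15, 14 and 17 (log2 fold change 0.75, SE 0.120, adjusted p = 0.0140). In all of these the lowest HFHC-EV library held several times the reads of the highest Chow-EV library. 374-3p had 1 Chow-EV and 18 HFHC-EV reads (adjusted p = 0.0329).

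The other 6 of the 10 had no read in any Chow-EV library. 389-3p (S10090_2022) had 17, 6 and 17 reads in HFHC-EV, which makes it at least 13.7-fold higher there when 3 reads over the Chow-EV group are taken as the floor (limma adjusted p = 0.0333). Here and below, such folds take account of the group without reads only, and leave out counting error in the other group. Such entries entered the fit only through the diet with reads. In the other diet their SD is 0, which lowers the variance behind the limma p. edgeR called none of them without the replicate block, and some of them with it. 108-5p had 13, 6 and 8 reads and 363-5p 9, 7 and 11, both at least 9.24-fold higher (adjusted p = 0.0280 and 0.0147). 226-3p, with 5, 5 and 7 reads, and 235-3p, with 9, 4 and 4, were at least 5.82-fold higher (adjusted p = 0.0147 and 0.0459). 24-3p was called on 1 read in each HFHC-EV library, 3 in all (adjusted p = 0.0471, and 0.40 in edgeR), which is at the floor and allows no fold.

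Entries of the opposite kind numbered 6. 424-5p (S10090_2064) had 19, 26 and 24 reads in Chow-EV against 5, 4 and 3 in HFHC-EV, 5.60-fold lower there in mean RPM (log2 fold change −0.84, SE 0.129, limma adjusted p = 0.0137). 118-5p had 12, 10 and 10 reads against 2, 0 and 0, and 155-3p had 7, 16 and 10 against 0, 0 and 1 (adjusted p = 0.0154 and 0.0295). Without any read in HFHC-EV were 140-3p, with 12, 7 and 8 reads in Chow-EV, 100-5p, with 7, 7 and 10, and 337-5p, with 8, 4 and 5. They were at least 8.77-fold, 7.80-fold and 5.52-fold lower there, by the same floor (adjusted p = 0.0168, 0.0147 and 0.0295). Among the 16, 3 of the 5p entries were higher and 4 lower, and 7 of the 3p entries were higher and 2 lower.

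**Figure D4:**
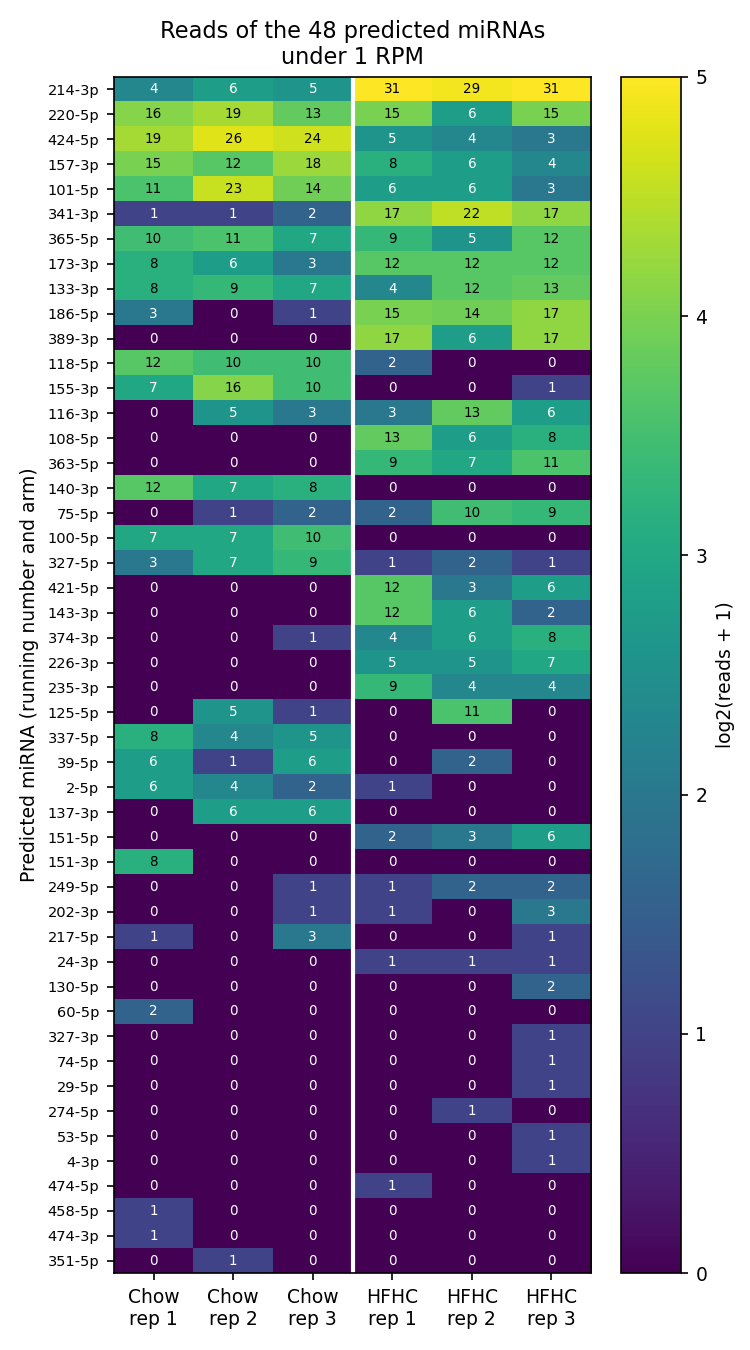
Recovered reads, written in each cell and coloured as log2(reads + 1), of the 48 predicted miRNAs with reads and a mean under 1 RPM (vertical axis, in order of mean RPM) in the 6 libraries (horizontal axis). Entries with reads in all 3 libraries of 1 diet and none in the other, such as 389-3p and 140-3p, stand beside single-read entries at the bottom.

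Presence in 1 diet alone was seen in both directions. Counting all predicted miRNAs with reads, 9 had reads in all 3 HFHC-EV libraries and in no Chow-EV library, and 3 had reads in all 3 Chow-EV libraries and in no HFHC-EV library. The corresponding numbers were 15 and 7 of the 365 annotated miRNAs, or 4.11% and 1.92% against 15.8% and 5.26% of the 57 predicted ones. The 9 were the 6 above and 421-5p, 143-3p and 151-5p, which had 21, 20 and 11 reads in HFHC-EV and were not called (limma adjusted p = 0.0842, 0.122 and 0.0725). A further 8 predicted miRNAs had 1 or 2 reads in HFHC-EV only, and 6 had 1 to 12 reads in 1 or 2 Chow-EV libraries only. Among the latter, 137-3p had 6 reads in each of Chow-EV replicates 2 and 3. With read numbers this small, no read in a diet means less than the floor of 3 reads over its libraries.

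**Figure D5:**
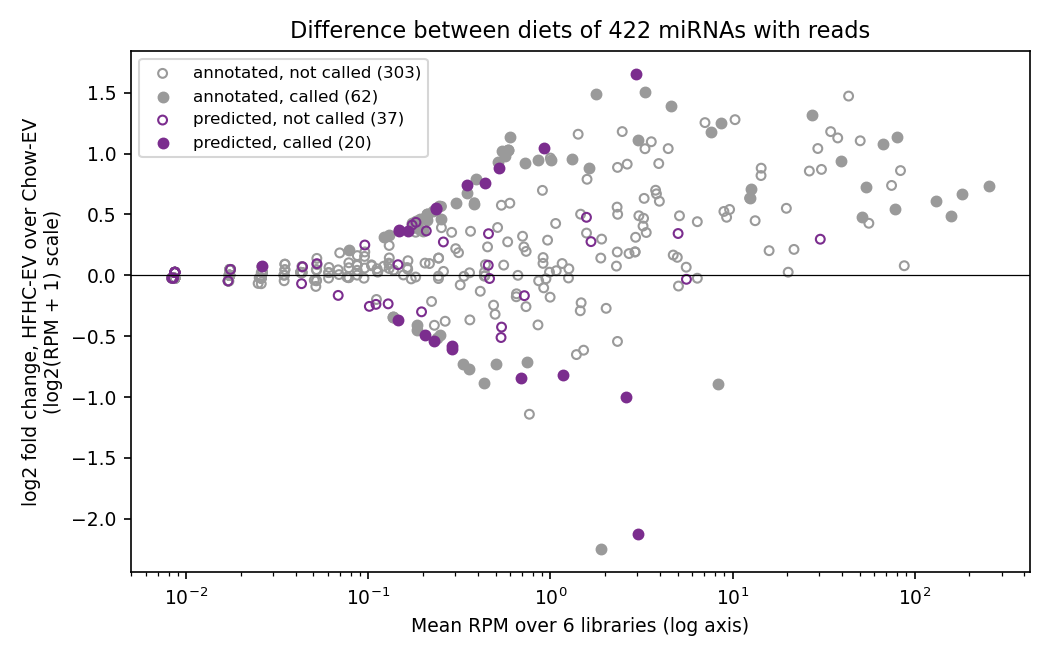
Log2 fold change of HFHC-EV over Chow-EV on the log2(RPM + 1) scale (vertical axis) against mean RPM over the 6 libraries (horizontal axis, log scale) for the 422 miRNAs with reads, purple for predicted and grey for annotated, filled where limma called them. On this scale predicted calls lie on both sides of 0 (11 higher, 9 lower), while annotated calls lie mostly above it (49 higher, 13 lower).

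The calls among low entries rested on few reads and moved with the settings. With TMM scaling, 7 of 57 predicted miRNAs were higher, where 5.92% of all with reads were, and 9 were lower, where 5.21% were. All 7 were among the 11, and 8 of the 9 were among the 9 lower ones. With this scaling 18 of the 365 annotated miRNAs were higher and 13 lower. edgeR's quasi-likelihood test, run on whole reads, called 0 of the 57 higher, where 0% of all were, and 1 lower, 112-3p, where 0.474% were. Its unadjusted p was under 0.05 for 13 higher and 15 lower predicted miRNAs, and for 32 and 25 of the 365 annotated ones. edgeR with the replicate block called 9 higher and 13 lower, where 13% and 11.8% of all were. DESeq2 gave an adjusted p to 46 of the 57 and called 10 higher and 12 lower, where 12.4% and 10.4% of all with an adjusted p were. Higher calls numbered 6 without Chow-EV replicate 2 and 7 without Chow-EV replicate 1 or 3, and lower calls numbered 5 without HFHC-EV replicate 2 or 3. The shares of all miRNAs called without a library were not set beside these counts. Of the 16 entries called under 1 RPM, 8 kept their calls without each single library in turn (214-3p, 341-3p, 186-5p, 363-5p, 226-3p, 424-5p, 118-5p and 100-5p). 389-3p and 235-3p lost theirs without any Chow-EV library and without HFHC-EV replicates 1 or 3 and 2 or 3, respectively (limma adjusted p up to 0.128 and 0.153). 108-5p and 374-3p lost theirs without any Chow-EV library and without HFHC-EV replicate 3 and 2, respectively (up to 0.105 and 0.118). 155-3p and 337-5p lost theirs without Chow-EV replicate 3 or any HFHC-EV library (up to 0.0874 and 0.0898), 140-3p without HFHC-EV replicate 2 or 3 (up to 0.0593), and 24-3p without Chow-EV replicate 2 (0.0612).

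The rest of the low entries had overlapping groups or missed the threshold. The most abundant of them, 220-5p, 157-3p and 101-5p, had 48, 45 and 48 Chow-EV reads against 36, 18 and 15 HFHC-EV reads (adjusted p = 0.590, 0.0945 and 0.0890 in limma). 365-5p, 173-3p and 133-3p had 28, 17 and 24 Chow-EV reads against 26, 36 and 29 HFHC-EV reads, and 116-3p and 75-5p had 8 and 3 against 22 and 21 (adjusted p from 0.140 to 0.969 for these 5). 327-5p had 19 reads against 4, 2-5p 12 against 1 and 39-5p 13 against 2 (adjusted p = 0.140, 0.0890 and 0.242). 125-5p had 5 and 1 reads in Chow-EV replicates 2 and 3 and 11 in HFHC-EV replicate 2. 249-5p, 202-3p and 217-5p had 5 or 6 reads in all. No predicted row with more than 2 reads had the same reads in all 6 libraries as another row. Among rows with reads, the 12 that did were the 10 single-read entries (274-5p, 29-5p, 327-3p, 4-3p, 53-5p, 74-5p, 351-5p, 458-5p, 474-3p and 474-5p) and 130-5p and 60-5p with 2 reads each.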

How the data were processed

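Small RNA of 18 to 30 nucleotides from hepatocyte EVs was sequenced in 6 libraries, 3 per diet; per the labels' protocols it was cut from a denaturing gel, ligated, reverse transcribed and amplified. Bowtie2 and the build GRCm38.p6 are named in the submitters' processing notes. The prediction program, the catalogue, the handling of reads that match several miRNAs and the RPM denominator remain not given in the sources used here. The deposited values are RPM, 1 table per library with the same 474 rows. Low values were whole multiples of 1 step, so the authors' RPM gave whole reads: 100% of values above 0 came out whole within 0.1 of a read in all 6 libraries, with denominators of 19114759 to 20122476 reads. Precision is limited by 27673 to 65775 listed reads per library.

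Diets were tested with limma-trend (limma 3.58.1, R 4.3.3) on log2(RPM + 1) over rows with a mean of at least 1 RPM, annotated and predicted together, with diet as the only term and Benjamini-Hochberg adjustment at 0.05. Rows under 1 RPM were taken from the same fit over all 422 rows with reads. For values per library the test was a 2-sided exact permutation (scipy 1.17.1), and floors are 3 reads over a group. Alternatives were TMM, RLE and total scaling, pseudocounts of 0.1 and 10, no filter, a mean of at least 5 RPM, edgeR 4.0.16, DESeq2 1.42.0 and voom on recovered reads, thresholds of 0.01 and 0.1, the replicate block and leaving out each library; leaving out both libraries of a number, and every alternative without the filter, were added after seeing the data. The fits without the block were run on simulated reads with a common spread, no pairing and changes only in rows of at least 1 RPM. That run does not bear on paired libraries, on unequal spread or on calls under 1 RPM.

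Over the 104 tested miRNAs, same-numbered libraries had correlated deviations from the diet means (r of 0.945, 0.894 and 0.946), so the numbers pair the samples, although no label says what a number marks. Where libraries do not come from separate mice, p-values measure only the spread between these libraries. With the block limma had 2 residual and, after pooling the variance over miRNAs, 208 total degrees of freedom, so its small p lean on that pooling. The miRNAs given by name are all predicted ones with a mean of at least 1 RPM, those under it that the fit without the filter called, numbers listed with both arms, rows identical to another row, the 3 most abundant annotated miRNAs and the cell markers; other predicted miRNAs named were chosen after their values were seen. The members and lists were chosen with earlier results of these data known.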

Additional observations from a re-analysis of the deposited data

How the results depend on the processing

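432-5p, 112-3p and 78-3p kept their direction under all alternatives run. With the filter on level they kept their calls under all but 3: voom, and leaving out both libraries numbered 1 or both numbered 2; without it, edgeR called 112-3p alone. The number of predicted miRNAs called higher (2) was 1 with TMM, RLE or total scaling, edgeR, DESeq2, a threshold of 0.01, the replicate block with TMM scaling, the replicate block in edgeR, or without both libraries numbered 3, 4 with the replicate block in RPM, 11 with no filter, and 0 with voom (1 at an unadjusted p under 0.05), with a mean of at least 5 RPM (1 unadjusted in limma) and without both libraries numbered 1 or 2 (2 unadjusted in limma each). Lower calls (3) numbered 5 with the replicate block under TMM scaling or in edgeR, 9 with no filter, and 0 with voom (4 at an unadjusted p under 0.05), with a mean of at least 5 RPM (0 unadjusted in limma) and without both libraries numbered 1 or 2 (3 unadjusted in limma each). Leaving out single libraries gave 1 higher (1 to 1) and 2 lower each time. Where the share of all tested miRNAs called is not given above, these counts do not compare predicted with annotated miRNAs.

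Over all predicted miRNAs with reads (11 higher, 9 lower), higher calls were 7 with TMM, 3 with total scaling, 6 with a pseudocount of 10 and 0 in edgeR (13 unadjusted), and lower calls 1 in edgeR, 14 with voom and 15 with the replicate block and TMM scaling. Without both libraries numbered 1, 2 or 3 limma called 0, 0 and 5 higher and 0, 0 and 2 lower (16, 12 and 14 higher and 12, 11 and 10 lower at an unadjusted p under 0.05). Single libraries left out gave 6 to 11 higher and 5 to 10 lower. Here too, settings whose share over all miRNAs is not given above do not compare predicted with annotated miRNAs.

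The median log2 fold change of the 9 (0.28) was −0.42 with TMM (also with the block), −0.23 with RLE, −0.37 with total scaling, −0.36 in edgeR (−0.34 with the block), −0.40 in DESeq2, −0.33 with voom, 0.064 with a pseudocount of 10 and 0.024 with no filter. Under TMM, RLE, total scaling, edgeR, DESeq2, voom, the replicate block with TMM and the block in edgeR, 142-3p stood at −0.42, −0.23, −0.37, −0.36, −0.40, −0.33, −0.42 and −0.34. In the same order 450-5p stood at −0.28, −0.11, −0.23, −0.28, −0.31, −0.21, −0.28 and −0.24, and 205-5p at −0.19, −0.063, −0.15, −0.20, −0.24, −0.16, −0.19 and −0.20. 402-5p stood at −0.66, −0.49, −0.61, −0.68, −0.72, −0.69, −0.66 and −0.69 in that order, and was called lower in DESeq2 (adjusted p = 0.0447), with the replicate block and TMM (7.1e-04) and with the block in edgeR (0.0088); in RPM it stood at −0.098 to 0.043 when single libraries were left out (0.043 without HFHC-EV replicate 2) and at 0.018 without both libraries numbered 2. These scalings divide by the listed miRNAs, whose sum was higher in HFHC-EV; other causes were not tested. The summed signal, share, number with reads, 5p share and share of 142-3p kept their direction under every alternative run. For the summed signal none of these rescaled the libraries to the listed miRNAs. Divided by the listed signal it is the share, which was lower in HFHC-EV. Depth limits the entries under 1 RPM, where 1 read is worth about 0.05 RPM.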
